A study of Mus musculus with 12 samples.

Results

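Hearts of mouse embryos that carried 1 disrupted copy of Slc25a1 (HET) were compared with hearts of wild-type embryos (WT), 4 against 4, out of 12 hearts in the study. The embryos were near the end of gestation (E17.5) and came from timed matings between mice heterozygous for the Slc25a1 knockout. The other 4 hearts, from homozygous knockout embryos (KO), were left out of the main tests. They serve below to show the level of the Slc25a1 probe in KO hearts. They also entered an alternative fit of all 12 hearts. Members were chosen by the genotype given in the sample titles, and the main comparison used log2 values centred on the median gene of each heart. Total RNA of each heart was read with NanoString nCounter probes, an assay that counts colour-coded tags on single transcripts and needs no amplification step, and 768 genes, many of them metabolic, were read. The label names a knockout of the whole animal, with no Cre driver, tissue restriction or strain. No litter, sex or assay run is given. P-values therefore measure the spread between these hearts.

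Slc25a1 encodes the citrate carrier of the inner mitochondrial membrane, which exchanges citrate from the matrix for malate from the cytosol. In the cytosol citrate is split by ATP citrate lyase into oxaloacetate and acetyl-CoA, the building block of fatty acids and sterols and the donor for histone acetylation. In humans the gene lies in the 22q11.2 region that is deleted in DiGeorge syndrome together with many other genes, a condition in which heart defects are common.

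The deposited values were ratios to the reference gene Tbp, from which whole probe counts were recovered. Totals ran from 1334362 to 1565516 counts per heart, and the Tbp count from 276 to 433. Tbp itself and 73 low probes (mean count under 20) were set aside, and 694 genes were tested. A normalised count below is a recovered count scaled so that all hearts share the same median gene, and a log2 difference is HET minus WT on the centred scale. Of the cardiomyocyte markers written down for checking the tissue, the panel measured only the muscle forms of enolase and phosphoglycerate mutase, Eno3 and Pgam2, so the labelled tissue could not be tested against sarcomere genes. Erythroid markers were not measured.

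Slc25a1 had normalised counts of 181, 204, 217 and 180.2 in the 4 WT hearts and 111, 98.7, 128 and 124 in the 4 HET hearts. Every HET heart lay below every WT heart. The mean was 196 ± 18.2 (SD, n = 4) in WT and 115 ± 13.3 (SD, n = 4) in HET. The fitted HET level was 59.1% of WT, with a 95% interval from 50.2% to 69.6%. The log2 difference was -0.76 (SE 0.102), with an unadjusted limma p of 7.33e-05. After Benjamini-Hochberg adjustment over the 694 genes p was 0.0509, just past the threshold of 0.05, so the targeted gene was not called on this scale. A two-sided exact permutation test of its 4 and 4 values gave p = 0.0286, the smallest such a design allows.

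The probe also gave 34.7 ± 9.21 normalised counts (SD, n = 4) in the KO hearts. With that mean taken off both groups, as if it were background equal in all hearts, the HET level was 50.2% of WT. What the KO counts come from was not tested. The position of the probe relative to the disrupted part was not given in the sources used here. The recovered counts behind these values were 167 to 218 in WT and 102 to 137 in HET. The plot of Slc25a1 by heart shows the gap between the groups together with the KO level.

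**Figure D1:**
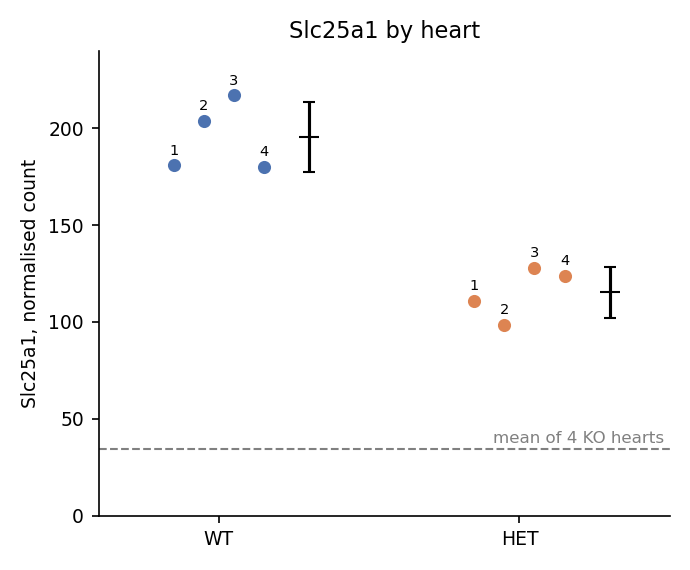
Normalised count of Slc25a1 (y axis) in the 4 WT and 4 HET hearts (x axis), each point a heart with its replicate number, the bar the mean ± SD (n = 4) and the dashed line the mean of the 4 KO hearts. The HET hearts lie between 98.7 and 128, all below the lowest WT heart at 180.2, and both groups lie above the KO mean of 34.7.

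Across the panel the 2 genotypes were close. No gene passed a limma adjusted p of 0.05 (0 of 694, 0%), while 45 genes (6.48%) had an unadjusted p under 0.05. Of these, 28 (4.03%) were above WT and 17 (2.45%) below, a split that turned to 12 and 4 on the deposited ratios to Tbp, 39 and 3 with hearts centred on housekeeping genes and 18 and 23 with quantile normalization. Centring on housekeeping genes moved the median of all genes by 0.05 on the log2 scale, and the deposited ratios moved it by -0.07. Each of these shifts applies to every gene alike, so differences and list medians of about that size depend on the scaling. A limma-voom fit called 1 gene, Slc25a1, and limma with a robust spread and an intensity trend called Slc25a1 and Itga1. The 95% interval of the log2 difference lay within ±0.5 for 508 of 694 genes (73.2%). Among the 341 genes with a mean count of 500 or more this held for 327 (95.9%), against 20 of the 135 genes under 50 (14.8%). The median half-width of the 95% interval was 0.48 for the genes under 50 and 0.17 for those of 500 or more.

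Genes of low count lay above WT more often than genes of high count. Of the 135 genes with a mean count under 50, 105 were above WT, with a median log2 difference of 0.21. Of the 50 genes between 50 and 100, 42 were above, with a median of 0.19. The medians were 0.02 for the 168 genes from 100 to 500 and -0.03 for the 341 genes of 500 or more. The 28 genes above WT at an unadjusted p under 0.05 had a median mean count of 45.1, and 17 of them were under 50. The 17 genes below WT had a median mean count of 745, and 1 of them, Tbx21, was under 50.

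Among the HET hearts this came mostly from replicates 3 and 4. Relative to the WT mean, genes under 50 stood at 0.06, -0.02, 0.43 and 0.24 in HET replicates 1 to 4, against -0.13 to 0.09 in the WT hearts. The 73 probes too low to be tested stood at 0.39 in HET replicate 3, between -0.10 and 0.06 in the other HET hearts and between -0.11 and 0.08 in WT. HET replicate 3 was thus raised in both, while HET replicate 4 was within the WT range for these probes, at 0.03. Without HET replicate 3 the median of the genes under 50 was 0.09, with 84 of 135 above WT, and quantile normalization put it at 0.02. The two-sided exact permutation p for the 4 and 4 hearts was 0.2 for the genes under 50 and 0.543 for the untested probes.

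**Figure D2:**
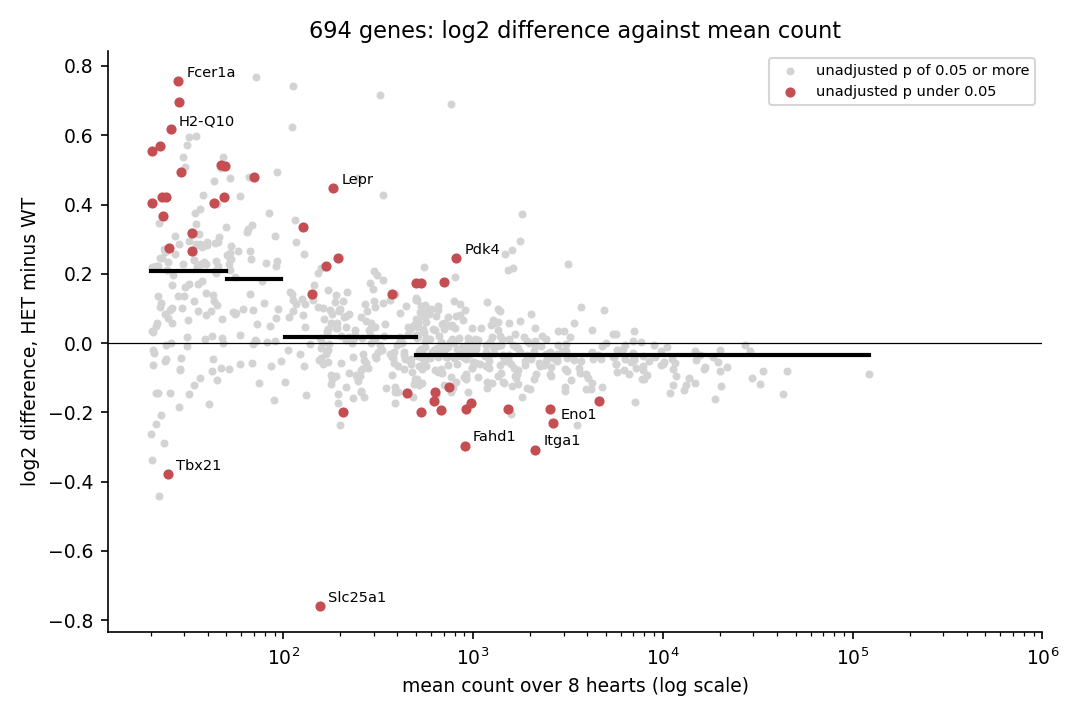
Log2 difference, HET minus WT (y axis), against the mean count over the 8 hearts (x axis, log scale) for 694 genes, with black bars at the median of each count class and red points for an unadjusted limma p under 0.05. The median is 0.21 for the genes under 50 and -0.03 for those of 500 or more, and Slc25a1 lies at -0.76, apart from genes of similar count.

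Among genes below WT, the next after Slc25a1 was Itga1, the alpha chain of an integrin that binds collagen. Its normalised counts were 2365, 2263, 2339 and 2410.2 in WT and 1962, 1844, 2012 and 1768 in HET. The groups did not overlap, and the spread within each was small beside the gap. The HET mean was 80.9% of WT, with a log2 difference of -0.31 (SE 0.0588, interval -0.44 to -0.17, limma adjusted p = 0.276). Leaving out each heart in turn kept it between -0.34 and -0.27. Groups that did not overlap were found for 29 genes (4.18%), 18 of them higher in HET (2.59%) and 11 lower (1.59%). That split was 3 and 5 on the ratios to Tbp, 25 and 2 with housekeeping centring and 10 and 16 with quantile normalization.

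Pik3r2, a regulatory subunit of PI 3-kinase, had 607, 552, 538 and 567 normalised counts in WT and 498, 494, 468 and 511 in HET, a log2 difference of -0.20 (SE 0.0587). Cenpa, the histone variant that marks centromeres, had 2867, 2502, 2801 and 2734 in WT and 2396, 2337, 2499 and 2318 in HET, a log2 difference of -0.19 (SE 0.0606). Eno1, the ubiquitous glycolytic enolase, had 3192, 2656, 2702 and 2821 in WT and 2441, 2480.0, 2199.9 and 2552 in HET, a log2 difference of -0.23 (SE 0.0785). In each of the 3 genes all HET hearts lay below all WT hearts, although WT replicate 2 and HET replicate 3 of Cenpa were almost level. The limma adjusted p was 0.678 for each.

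The other genes below WT with the smallest p came from several functions. Kif2c, a kinesin that takes microtubules apart in mitosis, stood at -0.14, and Gtse1, a microtubule-binding protein of dividing cells, at -0.17. Psph, the phosphatase that completes serine synthesis, stood at -0.15, and Shmt2, which passes a carbon unit from serine to folate in mitochondria, at -0.19. Prkag1, a regulatory subunit of the energy sensor AMPK, stood at -0.19, and Fahd1, a mitochondrial enzyme that acts on oxaloacetate, at -0.30. Of these 6, the groups of Kif2c and Psph did not overlap. Tbx21, the transcription factor T-bet of T and NK cells, stood at -0.38 on a mean count of 24.6. The limma adjusted p was 0.678 for all 7.

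Of the genes above WT with the smallest p, Pdk4 and Lepr had mean counts over 100, at 812 and 184. Pdk4, the kinase that switches off pyruvate dehydrogenase, had normalised counts of 736, 761, 806 and 669 in WT and 904, 942, 825 and 852 in HET. The highest WT heart lay just under the lowest HET heart, and the HET mean was 119% of WT. The log2 difference was 0.25 (SE 0.0748, interval 0.07 to 0.42, limma adjusted p = 0.678).

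Lepr, the leptin receptor, had 143, 168, 153 and 148 normalised counts in WT and 193, 201, 179.8 and 271 in HET. The groups did not overlap, and HET replicate 4 stood above the other HET hearts. The log2 difference was 0.45 (SE 0.128, limma adjusted p = 0.678). Left out in turn, no heart took Pdk4 under 0.20 or Lepr under 0.32.

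A further 8 of the 12 genes above WT with the smallest p had mean counts from 20.3 to 33.3. Fcer1a, the IgE-binding chain of the mast cell receptor, had the smallest p of the genes above WT. It had 26, 16, 15.9 and 25.6 normalised counts in WT and 31.7, 38.7, 36.4 and 33.4 in HET, with a log2 difference of 0.76 (SE 0.18, limma adjusted p = 0.631). Every HET heart lay above every WT heart. Ctsw, the cathepsin of NK and cytotoxic T cells, stood at 0.40 (limma adjusted p = 0.631).

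Mat1a, which makes S-adenosylmethionine and is best known from liver, stood at 0.32, and Slc3a1, a subunit of the cystine transporter, at 0.26. Sod3, the extracellular superoxide dismutase, stood at 0.42. Tlr1, a partner of Tlr2 in sensing lipopeptides, stood at 0.55, Gda, guanine deaminase, at 0.37 and H2-Q10, a secreted class I molecule, at 0.62. The limma adjusted p was 0.678 for these 6. With quantile normalization Slc3a1 stood at 0.075, Mat1a at 0.14, Gda and Ctsw at 0.24 each and Sod3 at 0.28, while Fcer1a stood at 0.61. Class I genes have near-identical copies, and which of them the H2-Q10 probe reads was not tested. All 8 genes belong to the class of low counts whose median was 0.21, and the raised low probes of HET replicate 3 are one of their 4 HET values.

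**Figure D3:**
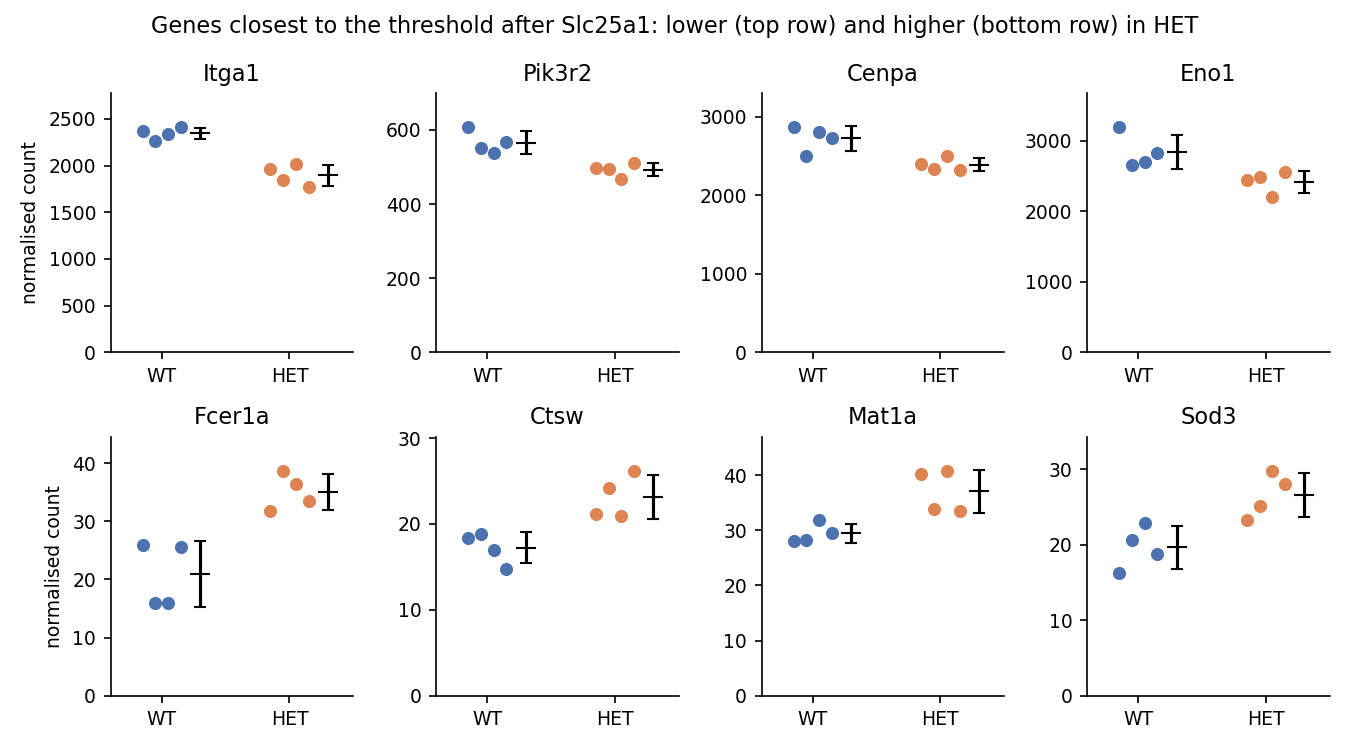
Normalised counts (y axes from 0) in WT and HET hearts (x axes) of the 4 genes below WT (top) and the 4 above WT (bottom) with the smallest limma p after Slc25a1, each point a heart and the bar the mean ± SD (n = 4). None of the 8 genes overlaps between the groups, and none passed the adjusted threshold. Counts in the lower panels reach 40.8 at most, while those in the upper panels are 468 or more.

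Genes that make or use citrate and acetyl-CoA stood near WT. The list held Slc25a1 and 6 other tested genes, of which 5 were below WT and 1 above, with a median of -0.08 against 0.00 for all 694 genes, and medians from -0.15 to -0.03 under the 3 other scalings. None of the 6 had an unadjusted p under 0.05, against 6.48% of all genes. All 6 intervals lay within ±0.5, against 73.2% of all genes. Citrate synthase Cs had 18134, 13984, 17496 and 18529.7 normalised counts in WT and 16972, 15756, 17461 and 14348 in HET, a log2 difference of -0.07, or 0.02 with quantile normalization. The groups overlapped.

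The NADP-dependent isocitrate dehydrogenases Idh1 of the cytosol and Idh2 of mitochondria stood at -0.09 and -0.05, and Idh2 at 0.0033 with housekeeping centring. The acetyl-CoA carboxylases Acaca and Acacb, which commit acetyl-CoA to malonyl-CoA, stood at 0.06 and -0.12, and fatty acid synthase Fasn at -0.12. On the ratios to Tbp, Acaca stood at -0.02. Of the fatty acid and sterol synthesis list, 4 of 7 genes were above WT, with a median of 0.03 that turned to -0.04 on the ratios to Tbp. Acsf3, the mitochondrial malonyl-CoA synthetase, had the smallest p there, with 352, 341, 363 and 364 normalised counts in WT and 406, 383, 402 and 376 in HET. It stood at 0.14 without overlap (SE 0.0523, limma adjusted p = 0.678). Srebf2, the regulator of sterol synthesis, stood at -0.10. Of a prepared list of 24 mitochondrial carriers of the family, only Slc25a1 was measured, so no other listed carrier could be examined.

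Genes of oxidative metabolism differed little between the genotypes, and none had an unadjusted p under 0.05 except Pdk4, against 6.48% of all genes. All 17 complex I subunits were below WT, with a median of -0.05, but with housekeeping centring 10 of the 17 were above WT, and with quantile normalization also 10. Among the lowest were Ndufa12 at -0.12 and Ndufb4 at -0.11. For complexes II to V, 15 of 16 subunits were below WT, with a median of -0.07, Sdhb at -0.14 and Uqcrq at -0.12, while quantile normalization put 8 of 16 above. Of 19 genes of the TCA cycle and pyruvate entry, 16 were below WT, with a median of -0.06, while quantile normalization put 9 above and 10 below, with a median of -0.00054, and housekeeping centring gave -0.01. Pdk1 and Pdk3, the relatives of Pdk4, stood at -0.13 and -0.14.

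These small shifts did not separate the genotypes by heart. The mean of the complex I subunits relative to WT was 0.05, -0.24, 0.06 and 0.13 in WT replicates 1 to 4 and 0.00, -0.09, 0.11 and -0.22 in HET replicates 1 to 4. WT replicate 2 was the lowest of all 8 and HET replicate 4 came next, so the groups overlapped. The median over complex I went from -0.13 without WT replicate 2 to 0.02 without HET replicate 4. Fatty acid uptake and oxidation had 7 of 11 genes above WT and a median of 0.03, or -0.05 on the ratios to Tbp, with Ppargc1a, the coactivator of mitochondrial genes, at 0.12 and Cpt1a, which brings fatty acids to the carnitine shuttle, at 0.08.

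Of 26 genes of glycolysis and glucose transport, 20 were below WT, with a median of -0.10. That median was -0.17 on the ratios to Tbp, -0.05 with housekeeping centring and -0.04 with quantile normalization. Eno1, described above, was among those below. Hypoxia targets had 10 of 15 genes below WT and a median of -0.05, or 0.0044 with housekeeping centring, with Ldha at -0.16 and Aldoa at -0.15. The pentose phosphate list was near WT, with 6 of 9 genes above and a median of 0.02, or -0.06 on the ratios to Tbp, and its smallest p was that of the ribokinase Rbks at 0.32.

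Serine and one-carbon genes had 7 of 9 members below WT and a median of -0.09, or -0.17 on the ratios to Tbp and -0.04 with housekeeping centring. Here 3 genes, Psph, Shmt2 and Psat1, were below WT at an unadjusted p under 0.05, against 2.45% of all genes, and Mat1a was above, against 4.03%. Of the 3, none had such a p on the ratios to Tbp or with housekeeping centring, and only Psph with quantile normalization. Psat1, the aminotransferase before Psph in serine synthesis, had 1763, 1453, 1621 and 1714 normalised counts in WT and 1577, 1359.9, 1432 and 1371 in HET, a log2 difference of -0.19 (SE 0.0805, limma adjusted p = 0.736). WT replicate 2 lay within the range of the HET hearts. The same 3 genes and asparagine synthetase Asns at -0.20 are the 4 of 11 ATF4 targets with an unadjusted p under 0.05, all below WT. The number with such a p was 0 on the ratios to Tbp, 0 with housekeeping centring and 1, Psph, with quantile normalization. That list as a whole had 5 genes above WT, 6 below and a median of -0.06, or 0.0022 with quantile normalization.

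Cell cycle genes had 10 of 12 members below WT and a median of -0.09, or 12 of 12 and -0.17 on the ratios to Tbp and 7 of 12 and -0.04 with housekeeping centring. None of these 12 was at an unadjusted p under 0.05, against 6.48% of all genes. The checkpoint genes Bub1b, Cdc20 and Bub1 stood at -0.17, -0.16 and -0.14. Cenpa, Kif2c and Gtse1, described above, were not on this list. They were below WT at an unadjusted limma p of 0.0138, 0.0312 and 0.0352 (limma adjusted p = 0.678 for each), as were 2.45% of all genes at p under 0.05. Nucleotide synthesis and salvage had 24 of 33 genes below WT and a median of -0.03, or 0.02 with housekeeping centring, while Nt5e, the ectoenzyme that makes adenosine, stood at 0.24 with an unadjusted p under 0.05. The mTOR, AMPK and insulin list had 14 genes above WT and 16 below and a median of 0.00. It had 2 above and 28 below on the ratios to Tbp, with a median of -0.08, and 22 above and 8 below with housekeeping centring, with a median of 0.05. Within it the PI 3-kinase regulatory subunits went opposite ways, Pik3r2 at -0.20 and Pik3r1 at 0.18, and Prkag1 stood at -0.19 (limma adjusted p = 0.678 for each). On the ratios to Tbp no gene of this list had an unadjusted p under 0.05. With housekeeping centring 1 had, above WT. Oxidative stress genes had 12 of 19 above WT and a median of 0.03, or -0.04 on the ratios to Tbp. Housekeeping candidates, genes commonly used as references, had 15 of 23 below WT and a median of -0.03, close to the medians of several of these lists.

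No immune cell gene was called, and how many lay above WT depended on the scaling. The union of the leukocyte, T cell, NK, B cell, macrophage, neutrophil, mast cell and dendritic lists held 46 tested genes, of which 38 were above WT, with a median of 0.21. With quantile normalization 25 of the 46 were above, with a median of 0.05, and on the ratios to Tbp 33, with a median of 0.14. Of these 46, 33 had mean counts under 50. Those 33 had a median of 0.20, with 25 above WT, and the other 102 genes of that count class had a median of 0.21, with 80 above. Immune genes of low count and other genes of low count thus had close medians. The 13 immune genes with mean counts of 50 or more were all above WT, with a median of 0.25, against -0.02 for the other 546 genes. This comparison is not matched on count, since most of the 546 had counts of 100 or more. Of all 50 genes between 50 and 100, 42 were above WT, with a median of 0.19. A fit limited to genes of 100 or more kept 5 immune genes, all above WT, with a median of 0.28.

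None of the 13 had an unadjusted p under 0.05, against 6.48% of all 694 genes. None had groups that did not overlap, against 4.18% of all genes. For only 13 genes, none is close to both shares. Their median varied with single hearts left out. It was 0.03 without WT replicate 4, with 9 of 13 above WT, and 0.10 without WT replicate 1 or without HET replicate 4. Each of the other hearts left out gave 0.24 to 0.38, with 10 to 13 of 13 above WT. Quantile normalization gave 0.10 with 8 of 13 above WT. In whole hearts a different number of cells of a type and a different amount of RNA per cell cannot be told apart.

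Macrophage and monocyte genes were above WT in 7 of 7 cases, with a median of 0.26, and in 5 of 7 with quantile normalization, with a median of 0.10. The membrane protein Ms4a4a had 54.1, 156, 96.6 and 54.2 normalised counts in WT and 103, 163, 102 and 149 in HET, a log2 difference of 0.62 (SE 0.353). WT replicates 1 and 4 were low, and WT replicates 2 and 3 lay close to the HET hearts or within their range. Cd84, a receptor of the SLAM family, stood at 0.49 (SE 0.302) and Cd163, the haemoglobin scavenger receptor, at 0.26 (SE 0.142), or 0.10 with quantile normalization.

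Ctss, the cathepsin of antigen-presenting cells, had 126, 396, 394 and 131 in WT and 304, 476, 321 and 405 in HET, a log2 difference of 0.72 (SE 0.426). The same pair of WT hearts was low. The limma adjusted p was 0.828 for Ms4a4a, Cd84 and Ctss. Ptprc, the pan-leukocyte antigen CD45, had 61.7, 97.8, 85.7 and 48.2 in WT and 76.1, 79.3, 104 and 115 in HET, a log2 difference of 0.38 (SE 0.236, limma adjusted p = 0.828). Itgb2, the common beta chain of leukocyte integrins, stood at 0.29, or 0.10 with quantile normalization. Their order by heart again put WT replicates 1 and 4 lowest.

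All 5 mast cell genes were above WT, with a median of 0.42, or 0.23 with quantile normalization, but they disagreed on which hearts were high. The protease genes Cpa3 and Tpsb2 and the histidine decarboxylase gene Hdc, all with mean counts over 100, stood at 0.43, 0.29 and 0.10 with standard errors of 0.473, 0.491 and 0.272. Cpa3 had 191, 556, 260.0 and 139.8 normalised counts in WT and 260.0, 400.4, 204 and 595 in HET. WT replicate 2 and HET replicate 4 were high, and the groups overlapped. Without WT replicate 4, Tpsb2 stood at -0.019 and Hdc at -0.068, below WT.

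The receptor chains Fcer1a and Ms4a2 differed from this. Ms4a2, the beta chain of the same IgE receptor, had 47.6, 39.5, 36.9 and 41.4 in WT and 51.8, 49.3, 80.5 and 46.1 in HET, a log2 difference of 0.42 (SE 0.175, limma adjusted p = 0.709). Its highest heart was HET replicate 3, the heart with raised low probes, and WT replicate 2 was not high. In WT replicate 2, the heart with the highest WT counts of Cpa3 and Tpsb2, Fcer1a was at 16, among its lowest values.

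**Figure D4:**
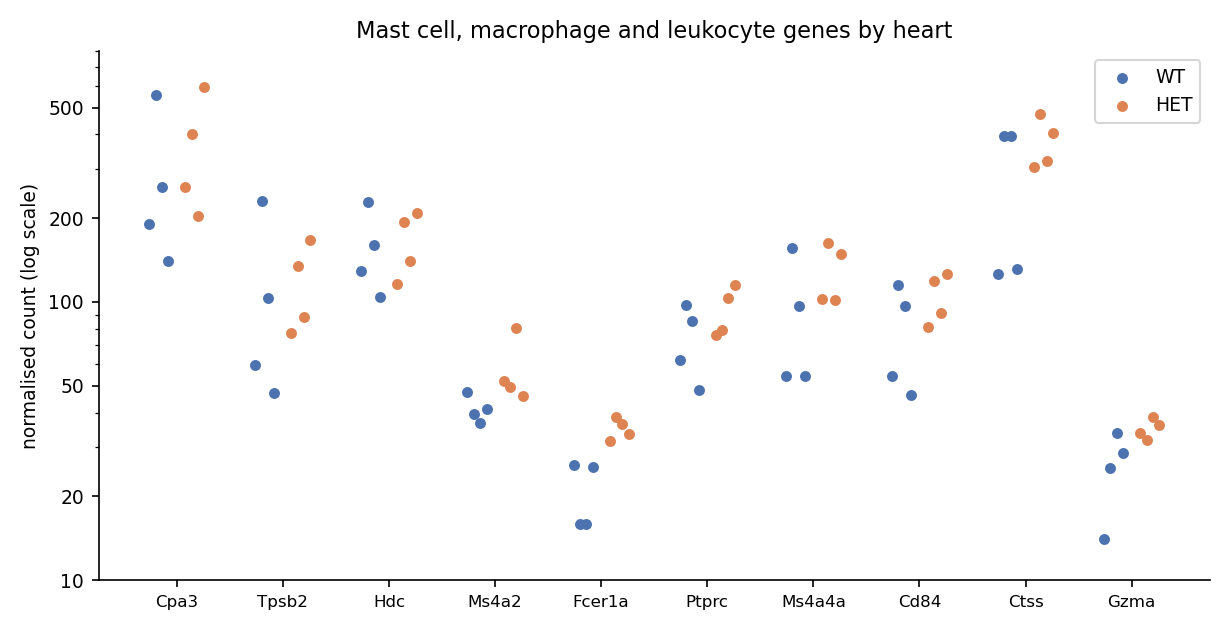
Normalised counts (y axis, log scale) of 5 mast cell genes and 5 other immune genes (x axis), with replicates 1 to 4 of each genotype from left to right. The groups overlap for 9 of the 10 genes, and only for Fcer1a do all HET hearts lie above all WT hearts.

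Lymphocyte genes were low throughout. The T cell list had 12 of 16 tested genes above WT and a median of 0.13, with Sh2d1a, the adaptor SAP, at 0.27 (unadjusted p under 0.05), or 0.13 with quantile normalization, and Tbx21 at -0.38. By heart its mean was 0.14, 0.01, 0.00 and -0.15 in WT and 0.00, -0.19, 0.28 and 0.34 in HET, so HET replicates 3 and 4 were high and HET replicate 2 was the lowest of all 8. With quantile normalization 7 of the 16 T cell genes were above WT and their median was -0.09. NK and cytotoxic genes had 7 of 8 above WT and a median of 0.23, or 4 of 8 and 0.03 with quantile normalization, with granzyme A, Gzma, at 0.51 (SE 0.235, limma adjusted p = 0.75) and HET replicate 3 highest in the list mean at 0.49.

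The 2 tested B cell genes were Btk at 0.29, on a mean count of 36.4, and Spib at 0.10, on 22.4, or -0.048 with quantile normalization and -0.061 without WT replicate 4. The 3 tested genes of the neutrophil list were all below WT, Csf3r at -0.12, Ceacam3 at -0.18 and Fpr1 at -0.01. Their mean counts were 33.9, 28.3 and 31.3. Whether Ceacam3 marks neutrophils in the mouse was not tested. Fpr1 stood at 0.043 with housekeeping centring and at 0.067 without WT replicate 2. Without HET replicate 2, Fpr1 stood at 0.25 and Ceacam3 at 0.022. The dendritic list had 3 of 3 above WT, led by Flt3, a receptor of blood progenitors and dendritic cells, at 0.38, although 1 of 3 was above and its median of 0.17 turned to -0.02 with quantile normalization. Antigen presentation had 6 of 10 genes above WT and a median of 0.12, or 0.02 with quantile normalization, cytokines and their receptors 13 of 19 and 0.06, and Toll-like receptor and interferon signalling 12 of 15 and 0.04. On the ratios to Tbp these last 2 medians were -0.0093 and -0.03.

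The first principal component held 44.1% of the variance over the 694 genes and placed WT replicate 2, HET replicate 2 and HET replicate 4 on one side and the other 5 hearts on the other. The second held 21.2% and set HET replicate 3 apart. A list of 7 matrix and mesenchyme genes, chosen in an earlier look at these hearts, had means of -0.17, 0.67, 0.04 and -0.53 in WT and -0.12, 0.33, -0.04 and 0.88 in HET. All 7 genes were above WT, with a median of 0.24, but the groups overlapped. The collagen VI chain Col6a3 had 1251, 2497, 1498 and 928 normalised counts in WT and 1389, 2116, 1299 and 3194 in HET, a log2 difference of 0.37 (SE 0.37, limma adjusted p = 0.895). A separately written fibroblast and matrix list, with 4 tested genes and none in common, had 2 above WT and a median of 0.02. Its means were -0.03, 0.02, 0.02 and -0.01 in WT and -0.10, -0.05, 0.00 and -0.03 in HET. Its genes include Itga1, at -0.31, which lowers the HET means, and Col4a1 and Col4a2, at 0.06 and 0.10. How the hearts rank in this list without Itga1 was not examined.

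The macrophage list, with means of -0.29, 0.50, 0.21 and -0.42 in WT and 0.07, 0.40, 0.21 and 0.44 in HET, was highest in the same 3 hearts, and the complex I subunits were lowest in them. With WT replicate 2 and HET replicate 4 both left out, the 13 immune genes of higher count had a median of 0.30, with 12 of 13 above WT, 70 genes had an unadjusted p under 0.05 and none was called. The plot of list means by heart shows this ordering for 13 lists and the untested probes.

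**Figure D5:**
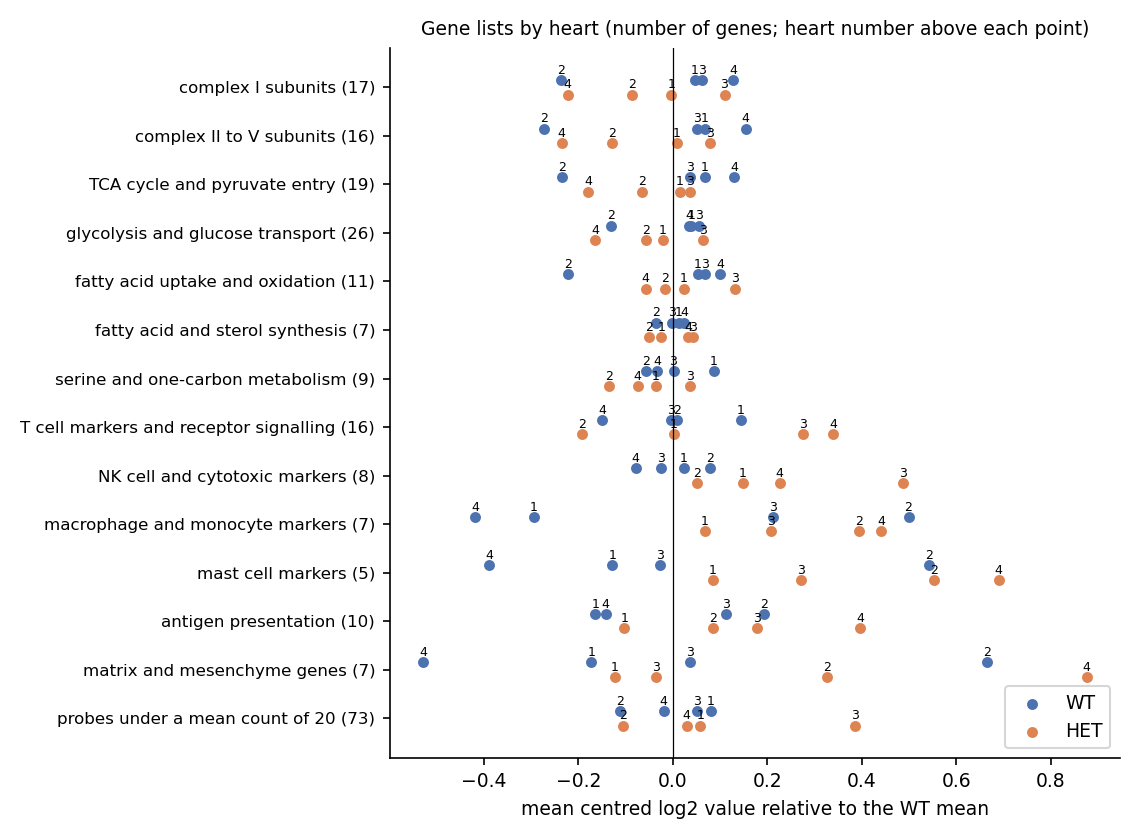
Mean centred log2 value relative to the WT mean (x axis) of 13 gene lists and of the 73 probes under the count minimum (y axis, number of genes in brackets), with WT hearts in blue, HET hearts in orange and the replicate number above each point. WT replicate 2 and HET replicate 4 lie at the low end of the respiratory and TCA lists and at the high end of the macrophage, mast cell and matrix lists, and HET replicate 3 stands out at 0.39 in the low probes.

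Genes on the chromosome of Slc25a1 were also examined, since a disrupted allele travels with its linked region in such matings. The panel measured no gene of a prepared list of close neighbours. Of the 14 tested genes on chromosome 16 other than Slc25a1, 9 were above WT and 5 below, with a median of 0.04. None had an unadjusted p under 0.05, against 6.48% of all genes.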

How the data were processed

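The authors deposited ratios: each of 768 probe values divided by that of Tbp in the same heart, as the values themselves show. RNA was extracted with an RNeasy Micro kit and read on the nCounter platform, per the labels' protocols. Any background subtraction, any scaling to control probes, the panel and the software were not given in the sources used here. Whole counts were recovered per heart with the lowest integer that turned every ratio into a whole number (tolerance 0.01). That integer was read as the Tbp count, which gives the lowest counts that fit the ratios. Their lowest value per heart was 5 to 7.

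Values were log2(count + 1), centred on each heart's median over the genes whose mean count reached 20, Tbp excluded. The 4 HET and 4 WT hearts were fitted with limma 3.58.1 in R 4.3.3 (lmFit, eBayes), with Benjamini-Hochberg adjustment over 694 genes. Log2 differences of low genes are shrunk by the pseudocount and by any background left in the counts that is equal in all hearts. Background that differs between hearts can shift them either way. The untested low probes stood at 0.39 in HET replicate 3, and the background of each heart was not tested. A negative binomial model was not used, since the counts were recovered from ratios. All 12 pairs of hearts of the same genotype differed by more than counting error (chi-square per degree of freedom 2.81 to 29.4).

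The hearts and 46 gene lists, of which 44 had a tested member, were chosen with earlier results of these data known. Lists are described by counts and medians, with no test. Named genes were Slc25a1, the 12 with the smallest p in each direction, up to 3 with the smallest p per list described, and short lists in full. A few of these genes are not reported here. Of the 768 deposited symbols, 767 were found in the RefSeq table of GRCm38.p6, which also gave their chromosomes. Alternatives covered scaling, pseudocount, filter, spread model, heart weights, KO hearts in the fit, a replicate block and single hearts left out. The main limma fit was run on simulated counts with the same extra spread for all genes and no pattern shared by genes within a heart. The real hearts had such patterns, so that run does not test the fit on hearts like these. The alternative fits were not run on simulated counts. Python 3.11.15 with matplotlib 3.10.9 drew the figures.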

Additional observations from a re-analysis of the deposited data

Results flagged for a closer look

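In groups of 4, a heart was set apart where its gap to the nearest of the others took up more of the group's range than Dixon's critical value allows. Chance does this in about 1 in 20 groups, and here it held for 14 of 324 groups of named genes and lists. WT replicate 2 accounted for 7 of them. Its normalised counts were low for Gtse1 (605, others 672 to 680.4), Cox7b (225, others 264 to 271), Nfs1 (1342, others 1533 to 1572), Aldoa (38361, others 46869 to 48429) and Tigar (356, others 448 to 452). It was also low in the mean of the fatty acid oxidation list (-0.22, others 0.05 to 0.10) and of the glycolysis list (-0.13, others 0.03 to 0.06).

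Among the other WT hearts, replicate 1 was high for Slc7a11 (34.6) and low for Nt5e (164), and replicate 4 was low for Irf4 (21.7). Among the HET hearts, replicate 1 was high for Got2 (1472), replicate 2 was high for Sos1 (563) and low for Lta (36.8), and replicate 4 was low for Sh2d1a (22.6). None of these genes passed the adjusted threshold.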

How the results depend on the processing

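Slc25a1 was below WT under every setting tried, and which side of the threshold it took depended on the setting. Its log2 difference and limma adjusted p were -0.83 and 0.0159 on the deposited ratios to Tbp, -0.71 and 0.0477 with housekeeping centring, -0.85 and 0.0284 with quantile normalization, -0.74 and 0.0459 with a pseudocount of 5, -0.77 and 0.0291 with voom weights, -0.76 and 0.0167 with a robust spread and trend, -0.85 and 0.0266 with heart weights, and -0.77 and 0.0163 with a mean count of at least 100, a filter chosen after seeing the data. In each of these 8 fits it was called, as 1 of 1 gene, or with Itga1 as 1 of 2 in the robust and weighted fits. It was not called with a pseudocount of 0.5 (adjusted p = 0.0516), no filter (0.112), a minimum of 50 (0.0526), all 12 hearts (0.515) or the low probes' median subtracted (0.0567, added after seeing the data). Leaving out each heart gave -0.81 to -0.69 (adjusted p 0.0805 to 0.268) and no call.

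The 45 genes with an unadjusted p under 0.05 became 16 on the ratios to Tbp, 105 with heart weights and 70 without WT replicate 2 and HET replicate 4, and 22 (without WT replicate 4) to 95 (without WT replicate 2) with single hearts left out, 29 without WT replicate 3. The 29 genes without overlap became 8 on the ratios to Tbp, 134 without both hearts and 34 to 113 with single hearts left out, the latter without WT replicate 2, where fewer hearts make gaps easier. The T cell median was -0.085 with quantile normalization. The cause was not tested. With single hearts left out it ran from 0.032 to 0.25, the leukocyte median from 0.17 to 0.49, the complex I median from -0.13 to 0.020 and the citrate median without Slc25a1 from -0.15 to -0.050. The replicate number as a block gave 38 genes with an unadjusted p under 0.05, 0 calls and Slc25a1 at -0.76 (adjusted p = 0.270). Hearts of the same number had correlations of 0.22, 0.24, 0.07 and -0.50, and 2 of 8 correlated best with their own number. These values do not tell whether hearts of the same number shared a litter or assay run, which is not given.

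Of 1767 values of 122 named genes under 15 settings, 1745 kept their direction and side and 20, in 16 genes, turned sign. On the ratios to Tbp these were Acaca (a log2 difference of -0.016), Slc3a2 (-0.034), Nadk (-0.035), Col4a1 (-0.015) and Flt1 (-0.049). With housekeeping centring they were Idh2 (0.0033), Gcdh (0.00024), Fpr1 (0.043) and Eno3 (0.0060). With quantile normalization they were Cs (0.017), Fah (-0.11), Rplp0 (0.028), Fcgr4 (-0.0032), Spib (-0.048), Irf4 (-0.023), Hsd11b1 (-0.067) and Eno3 (0.013). Flt1 was -0.0018 with no filter, Irf4 -0.076 with heart weights, and Fpr1 0.022 without both hearts. With single hearts left out, 15 named genes turned sign at least once. Their log2 differences ran from -0.050 to 0.29 for Fah, -0.12 to 0.25 for Fpr1, -0.14 to 0.022 for Idh2, -0.024 to 0.26 for Hmox1, -0.061 to 0.29 for Spib and -0.019 to 0.74 for Tpsb2. The range was -0.068 to 0.31 for Hdc, -0.013 to 0.40 for Irf4, -0.032 to 0.25 for Hsd11b1, -0.15 to 0.040 for Eno3 and -0.42 to 0.022 for Ceacam3. It was -0.00032 to 0.070 for Nadk, -0.028 to 0.066 for Flt1, -0.11 to 0.016 for Gcdh and -0.025 to 0.10 for Slc3a2. With 4 hearts a side, genes with mean counts of 20 to 50 had a median 95% half-width of 0.48 on the log2 scale.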
